A study of Rattus norvegicus with 6 samples.

Results

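Osr1, Dmrt2 and Patz1 encode DNA-binding proteins whose transcripts were among the steepest falls when primary cells of the superficial layer of rat articular cartilage were exposed to fluid shear stress. They are described here with 7 relatives of the same families or of the same mesenchymal programme, Osr2, Prrx1, Prrx2, Twist1, Twist2, Snai1 and Snai2. The 10 genes were found by their symbols among the 32161 rows of the deposited count table, and all 10 were among the 13945 genes with enough counts to be tested. Osr1, Dmrt2 and Patz1 were chosen because they fell in this very comparison, so their values are given as a description without a test. The relatives were chosen by family and role, with earlier results of these data known. RNA came from cells held at 0 dyne/cm² (static, 3 libraries) or at 20 dyne/cm² (shear, 3 libraries), where shear stress is the drag of flowing fluid on the cell surface. No strain, age, duration of flow or passage is labelled for either group. Nor is it labelled that the libraries are separate cultures or animals, so a p-value here speaks of library-to-library spread, which may be technical.

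Transcription factors of this kind set and hold the identity of mesenchymal cells, the loose connective cells from which cartilage, tendon and bone arise. OSR1 and OSR2 are odd-skipped zinc-finger proteins that in mouse and chick embryos mark connective tissue and the forming joints. PRRX1 and PRRX2 are paired-related homeodomain proteins of the limb bud. TWIST1 and TWIST2 are basic helix-loop-helix proteins, and SNAI1 and SNAI2 (also called Snail and Slug) are zinc-finger repressors. Both kinds recognise E-boxes, the short DNA motif CANNTG, and are known for repressing the cadherin gene Cdh1 in the epithelial-mesenchymal transition (EMT). In mouse chondrocytes SNAI1 is also known as a repressor of Col2a1 and Acan. DMRT2 carries the DM domain, a zinc-binding fold first found in sex-determining genes, and in mouse acts in the patterning of somites, from which muscle and the axial skeleton form. PATZ1 combines a BTB domain, through which such proteins pair with each other, with zinc fingers.

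Each library held between 33342775 and 33979479 counts. Of all genes tested, 10.8% were called higher and 7.71% lower under shear (edgeR, adjusted p under 0.05), the shares to set beside marker calls. Among the cartilage markers looked at, the lubricin gene Prg4, which defines the superficial layer, had 607 to 771 counts per library, while the cartilage collagen gene Col2a1 had 4 to 8. CPM is a gene's count per scaled library total. Summed CPM of skeletal muscle markers was 24.9 to 26.8 in static and 20.0 to 20.8 in shear libraries. Of 5 tested, 0 were higher and 4 lower, and Myod1 and Myog had 6 counts or fewer everywhere. Among the lower ones, Actn2 had 2 to 54 counts per library, with means of 1.48 CPM in static and 0.303 CPM in shear libraries. Its lowest library lay below the minimum count of the filter, so that its call may follow in part from the filter. The endothelial sum was lower under shear too, with 16.2 to 17.8 CPM in static and 12.1 to 14.3 CPM in shear libraries. Of 4 tested, 0 were higher and 1 lower, with Emcn at 0. The lower one, Kdr, went from a mean of 7.28 to 3.68 CPM. Egfl7 (5.83 and 5.76 CPM), Tek (3.28 and 3.13 CPM) and Vwf (0.523 and 0.453 CPM) were not called. Macrophage and leukocyte markers also summed lower, at 3.50 to 4.37 CPM in static and 2.16 to 2.79 CPM in shear libraries. Neither of the 2 tested was called, and C1qa was at 0. Synovial fibroblast markers summed to 1504 to 1539 CPM in static and 1806 to 1861 CPM in shear libraries, with 3 of 6 higher, and Hbegf alone went from a mean of 285 to 513 CPM. Superficial zone markers summed to 1200 to 1229.6 CPM in static and 1229.9 to 1277 CPM in shear libraries. Of 6 tested, 3 were higher and 0 lower. Cd44, at means of 1029 CPM in static and 1053 CPM in shear libraries, makes up most of this sum and was not called. Vit and Erg had 4 counts or fewer in every library. The sums of deep zone chondrocyte, osteoblast, adipocyte, smooth muscle and epithelial markers overlapped between the groups. Col11a1, at 587 and 582 CPM, makes up most of the deep zone sum, within which Sox9 was higher (6.54 to 15.6 CPM) and Acan lower (14.2 to 11.3 CPM). The part of these cell types in the results below was not tested, and in bulk RNA fewer cells of a type and less RNA per cell cannot be told apart.

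Sequences around RefSeq starts (build GRCr8) are shown for Dmrt2 and Patz1, which fell, and for Snai1, which was higher under shear. These are members with large differences, and the start lies 7 bases inside the RefSeq gene for Dmrt2, 195 for Patz1 and 0 for Snai1. For Patz1 the bases after the start begin with ATG, and most of the window, its E-box included, lies inside the gene. The motif counts of that window therefore do not describe the sequence upstream of Patz1. Each window runs from 250 bases before to 50 bases after the start, 5′ to 3′ on the gene's strand, and the capitals mark E-boxes (CANNTG) and CCAAT boxes on either strand. The window of Dmrt2 is chr1:232743692-232743991, plus strand, that of Patz1 is chr14:82378171-82378470, plus strand, and that of Snai1 is chr3:176667226-176667525, plus strand.
Dmrt2: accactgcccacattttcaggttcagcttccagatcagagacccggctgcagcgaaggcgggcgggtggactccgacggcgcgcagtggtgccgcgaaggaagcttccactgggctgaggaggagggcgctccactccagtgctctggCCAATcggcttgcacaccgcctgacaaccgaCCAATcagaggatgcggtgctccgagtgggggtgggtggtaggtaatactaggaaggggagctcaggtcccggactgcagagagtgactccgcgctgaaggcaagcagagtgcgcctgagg
Patz1: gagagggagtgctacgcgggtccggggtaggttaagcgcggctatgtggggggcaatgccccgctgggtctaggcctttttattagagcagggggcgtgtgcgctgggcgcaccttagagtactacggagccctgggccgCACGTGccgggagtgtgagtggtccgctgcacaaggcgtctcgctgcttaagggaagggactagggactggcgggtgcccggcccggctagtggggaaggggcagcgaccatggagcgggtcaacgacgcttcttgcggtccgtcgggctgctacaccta
Snai1: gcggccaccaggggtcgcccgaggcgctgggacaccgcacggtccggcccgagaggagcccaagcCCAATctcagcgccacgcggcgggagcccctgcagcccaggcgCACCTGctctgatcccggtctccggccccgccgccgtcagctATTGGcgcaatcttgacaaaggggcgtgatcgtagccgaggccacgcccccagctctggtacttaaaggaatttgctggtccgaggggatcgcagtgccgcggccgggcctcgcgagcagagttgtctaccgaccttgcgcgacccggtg
The Dmrt2 window held 2 CCAAT boxes and no E-box, the Patz1 window shown 1 E-box and no CCAAT box, and the Snai1 window 1 E-box and 2 CCAAT boxes. The E-box of Snai1, 142 bases before the start, has the letters CAGGTG on the minus strand, the form that SNAI proteins are known to prefer. Of 33469 RefSeq windows of this length, 72.1% held an E-box, 18.8% the form CAGGTG and 37.5% a CCAAT box. The windows of Dmrt2, Patz1 and Snai1 held no AP-1 motif (TGANTCA, in 7.33% of all windows), no cAMP-response motif (TGACGTCA, 1.83%), no TEAD motif (GGAATG, 14.2%) and no CArG box (1.64%), all searched on both strands. A further RefSeq start of Patz1, 2506 bases inside the gene, has a window, not shown, with 3 E-boxes, 1 of them of the form CAGGTG, and 1 CCAAT box. For Osr1 the RefSeq start used for the window lay 8963 bases inside the RefSeq gene, whose extent differs from the count table's span given below. That window is not shown. No window was available here for Snai2, which also had a large difference, or for Osr2.

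Osr1 had the lowest static level of the 3 genes chosen for their falls. Osr1 lies on chromosome 6 from 35314444 to 35321667 on the plus strand, in the coordinates of the count table, whose genome build is not given in the sources used here. Its level was 4.22, 4.34 and 3.52 CPM in the static libraries and 1.19, 1.16 and 1.26 CPM in the shear libraries. The groups were well apart, and the third static library lay below the other two. The means were 4.03 ± 0.44 and 1.21 ± 0.05 CPM (SD, n = 3 each), and the log2 fold change, shear over static, was -1.74 ± 0.18 (SE), a level 3.33 times lower. These values rest on 122 to 150 counts per static and 38 to 42 per shear library.

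Dmrt2 (chromosome 1, 243662823 to 243669312, plus strand) had 11.1, 10.8 and 10.2 CPM in static and 3.96, 3.74 and 3.60 CPM in shear libraries. Libraries of a group were close to each other (coefficient of variation 4.19% static, 4.77% shear), and every shear library was far below every static one. The log2 fold change was -1.51 ± 0.11 (SE), 2.84 times lower under shear. Patz1 (chromosome 14, 83510278 to 83528898, plus strand) had 9.53, 8.63 and 8.69 CPM in static and 2.44, 2.82 and 2.91 CPM in shear libraries. The groups were again apart, with a log2 fold change of -1.71 ± 0.13 (SE), 3.28 times lower. Counted from the most negative log2 fold change of the 13945 genes, Osr1 ranked 21, Patz1 23 and Dmrt2 33. None of the exon bases of the 10 members was shared with the exons of another gene of the table on either strand.

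**Figure D1:**
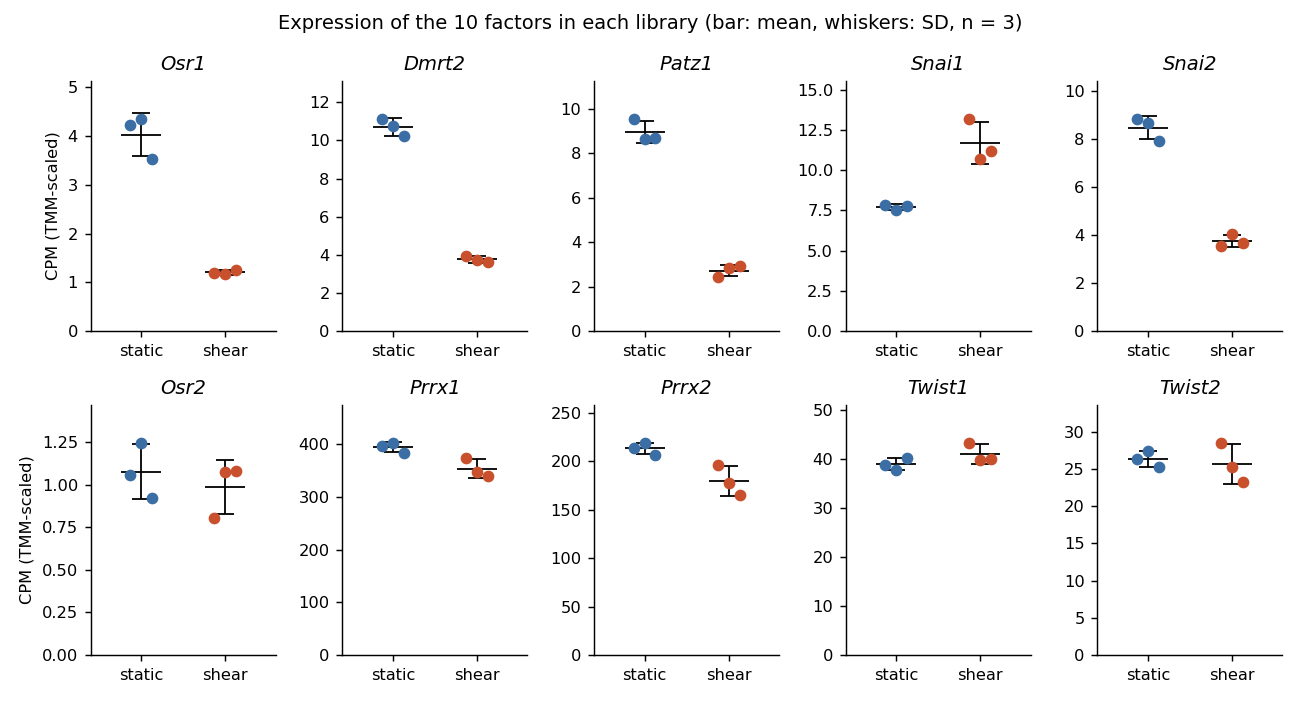
Level of each of the 10 genes in CPM, scaled by TMM factors, in the 3 static (blue) and 3 shear (orange) libraries; points are libraries, bars are means and whiskers SDs, and each panel starts at 0. Osr1, Dmrt2, Patz1 and Snai2 lie lower and Snai1 higher under shear with no overlap of the groups, while Osr2, Twist1 and Twist2 overlap.

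The SNAI pair went in opposite directions. Snai1 (chromosome 3, 164274710 to 164279378, plus strand) had 7.86, 7.50 and 7.80 CPM in static and 13.2, 10.7 and 11.2 CPM in shear libraries. All shear libraries were above all static ones, and the first shear library was the highest. Snai1 rose by 0.60 ± 0.10 on the log2 scale (SE, edgeR quasi-likelihood test, adjusted p = 0.0001, higher in 3 of 3 shear libraries), or 1.51 times. Snai2 (chromosome 11, 90403333 to 90406797, minus strand) had 8.83, 8.66 and 7.91 CPM in static and 3.54, 4.05 and 3.66 CPM in shear libraries. The groups did not overlap, and Snai2 fell, its log2 fold change being -1.17 ± 0.12 (SE, adjusted p = 6.5e-08 by edgeR), 2.26 times lower. Over the alternatives of scaling, filter, tool and left-out libraries, the adjusted p ranged from 2.2e-07 to 0.0014 for Snai1 and from 9.9e-18 to 2.7e-06 for Snai2.

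Per exon length the SNAI pair was level in static cells and unequal under shear. The ratio of Snai1 to Snai2 in RPKM (CPM per kilobase of exon) was 0.953, 0.927 and 1.05 in the static and 3.97, 2.83 and 3.27 in the shear libraries. Every shear library had the higher ratio, and on the log2 scale the means differed by 1.77 (exact two-sided permutation test, p = 0.1, adjusted p = 0.15 over 3 pairs, n = 3 each). With 3 libraries against 3, an exact permutation test can give no p below 0.1.

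The PRRX pair was the most abundant and changed little. Prrx1 (chromosome 13, 81147348 to 81214546, minus strand) had 396, 403 and 384 CPM in static and 374, 347 and 341 CPM in shear libraries. The groups did not overlap, and Prrx1 fell, its log2 fold change being -0.16 ± 0.05 (SE, adjusted p = 0.02 by edgeR), 1.12 times lower. That call was lost without static replicate 1 (adjusted p = 0.06), static replicate 2 (0.091), shear replicate 2 (0.074) or shear replicate 3 (0.12). Prrx2 (chromosome 3, 9681871 to 9718051, plus strand) had 214, 219 and 207 CPM in static and 196, 178 and 165 CPM in shear libraries. All static libraries were above all shear libraries, with a log2 fold change of -0.25 ± 0.05 (SE, adjusted p = 0.0015 by edgeR), 1.19 times lower. The ratio of Prrx1 to Prrx2 in RPKM was 2.64, 2.62 and 2.64 in static and 2.72, 2.78 and 2.94 in shear libraries. The mean log2 ratio differed by 0.09 between the groups (exact two-sided permutation test, p = 0.1, adjusted p = 0.15 over 3 pairs, n = 3 each).

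The TWIST pair and Osr2 did not pass the test. Twist1 (chromosome 6, 53401109 to 53403214, plus strand) had 38.7, 37.7 and 40.1 CPM in static and 43.2, 39.7 and 39.9 CPM in shear libraries, with a log2 fold change of 0.08 ± 0.06 (SE, adjusted p = 0.43 by edgeR). Twist2 (chromosome 9, 98924134 to 98968510, plus strand) had 26.4, 27.4 and 25.2 CPM in static and 28.5, 25.3 and 23.3 CPM in shear libraries, with a log2 fold change of -0.04 ± 0.07 (SE, adjusted p = 0.80 by edgeR). Both genes had overlapping groups, and the sign for Twist2 changed without shear replicate 3 (0.03). The log2 ratio of Twist1 to Twist2 in RPKM differed by 0.12 between the groups (exact two-sided permutation test, p = 0.3, adjusted p = 0.3 over 3 pairs, n = 3 each). Osr2 (chromosome 7, 74047814 to 74055256, plus strand) had 1.06, 1.25 and 0.924 CPM in static and 0.804, 1.07 and 1.08 CPM in shear libraries. At 27 to 43 counts per library its log2 fold change was -0.13 ± 0.28 (SE, adjusted p = 0.82 by edgeR).

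Of the 7 relatives, 1 rose, 3 fell and 3 did not pass, where 18.5% of all genes tested were called, 10.8% higher and 7.71% lower. In 7 of the 10 members the groups did not overlap, against 32.7% of the genes tested, and in 6 of these the shear libraries were the lower ones, against 15.9% of the genes tested. Nothing is read from these counts, because the members were chosen with the comparison known. The balance of rises and falls over all genes depended on the scaling, with 58.4% of called genes higher by TMM factors, 48.3% by upper-quartile factors and 39.4% by library totals alone. The calls of the 7 relatives were the same under all of these scalings.

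**Figure D2:**
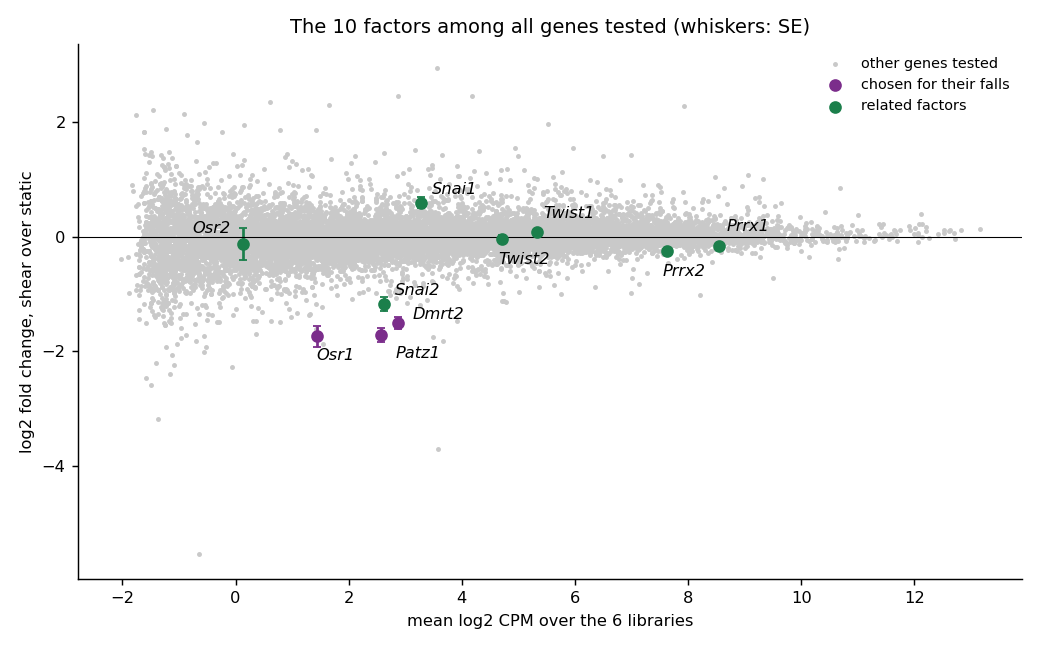
Log2 fold change, shear over static, against mean log2 CPM over the 6 libraries for all 13945 genes tested (grey), the 3 genes chosen for their falls (purple) and the 7 related factors (green), with SE as whiskers. Osr1, Patz1 and Dmrt2 lie at -1.74, -1.71 and -1.51, Snai2 at -1.17, and Snai1 at 0.60, while Prrx1 and Prrx2 lie near 0 at high levels.

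The abundance of the members spanned a wide range. Per exon length, the order in static cells was Prrx1 (458 ± 11 RPKM), Prrx2 (174 ± 5), Twist1 (24.1 ± 0.8), Twist2 (22.3 ± 0.9), Dmrt2 (4.59 ± 0.19), Snai2 (4.32 ± 0.25), Snai1 (4.21 ± 0.10), Patz1 (2.09 ± 0.12), Osr1 (1.84 ± 0.20) and Osr2 (0.531 ± 0.080; RPKM, SD, n = 3 each). Dmrt2 and Snai2, and Snai2 and Snai1, overlapped between libraries, and the other neighbours in this order did not. Under shear the order was the same down to Twist2, after which Snai1 (6.37 ± 0.71 RPKM) stood above Snai2 (1.91 ± 0.13) and Dmrt2 (1.62 ± 0.08). Patz1 (0.635 ± 0.058 RPKM), Osr1 (0.551 ± 0.023) and Osr2 (0.487 ± 0.078; SD, n = 3 each) then followed, and Patz1 overlapped with Osr1 and Osr1 with Osr2. These levels use the exon lengths of the table, and that of Prrx1 is 862 bases over a gene span from 81147348 to 81214546.

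**Figure D3:**
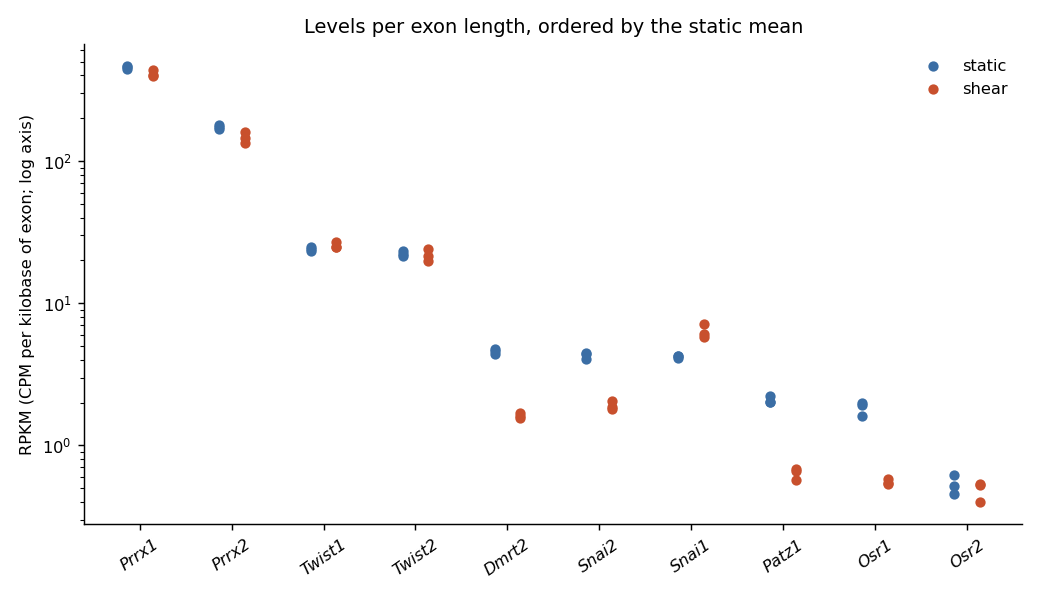
RPKM on a log axis for the 10 genes in the 3 static (blue) and 3 shear (orange) libraries, ordered by the static mean. Prrx1 and Prrx2 stand at 134 RPKM or more in every library, and Osr1 meets Osr2 near 0.5 RPKM under shear.

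The falls of Osr1 brought it close to its paralog. The ratio of Osr1 to Osr2 in RPKM was 3.70, 3.23 and 3.53 in static and 1.37, 1.01 and 1.08 in shear libraries, given as a description because Osr1 was chosen for its fall. All shear ratios lay below all static ones.

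**Figure D4:**
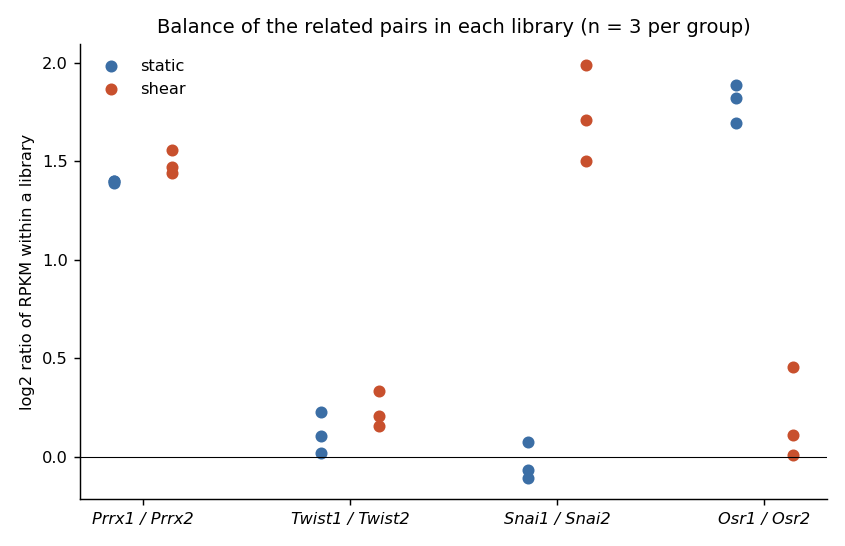
Log2 ratio of RPKM within each library for the pairs of relatives, 3 static (blue) and 3 shear (orange) libraries each; 0 means equal levels. The Snai1 to Snai2 ratio lies near 0 in static libraries and reaches 1.99 under shear, and the Osr1 to Osr2 ratio goes the other way, from 1.69 to 1.89 down to 0.01 to 0.46.

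The profiles of Osr1, Dmrt2 and Patz1 over the 6 libraries were also close to each other. Likeness was measured as the root mean square distance between log2 CPM profiles after each gene's mean was taken off, over 10263 other genes whose average log2 CPM reached 1. The genes most like Osr1 were Patz1 (0.11), Dmrt2 (0.13) and Irs1 (0.16), the insulin receptor substrate. Those most like Patz1 were Osr1 (0.11), the gene Spata13 (0.13) and Irs1 (0.13). Dmrt2 was closest to Id1 (0.09), an inhibitor of basic helix-loop-helix factors, then to Osr1 (0.13) and Patz1 (0.16). All of these genes were lower under shear, and the members' likeness to each other shares the contrast by which they were chosen.

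The genes beside Osr1, Dmrt2 and Patz1 on their chromosomes moved in both directions. For each, the 2 nearest tested genes on either side were taken by the distance between start sites. Of these 12 genes, 4 rose (33.3%), 2 fell (16.7%) and 6 did not pass, where 10.8% of all genes tested were higher and 7.71% lower. Next to Patz1, Drg1 at 33.7 kb had a log2 fold change of 0.00 ± 0.06 (SE, adjusted p = 0.98 by edgeR) and Pik3ip1 at 50.3 kb one of 0.07 ± 0.18 (adjusted p = 0.84), while Limk2, a kinase gene of actin turnover at 132 kb, rose by 0.32 and Eif4enif1 at 97.3 kb by 0.20. Next to Dmrt2, its relative Dmrt1 at 185 kb had 0.60 ± 0.09 CPM in static and 0.64 ± 0.24 CPM in shear libraries (SD, n = 3 each) and did not pass (edgeR adjusted p = 0.90). Kank1 at 386 kb rose by 0.43, the chromatin remodeller gene Smarca2 at 953 kb had a log2 fold change of -0.25 (edgeR adjusted p = 0.0011), and the receptor gene Vldlr at 1575 kb had one of -0.05 (adjusted p = 0.64). Of the 4 tested neighbours of Osr1, none nearer than 759 kb, Gen1 at 1626 kb fell (-0.87 ± 0.22, SE, adjusted p = 0.0058 by edgeR), AABR07063544.1 at 759 kb rose by 0.13, and Ttc32 (-0.05) and Rdh14 (-0.28) did not pass. The rise of AABR07063544.1 (edgeR adjusted p = 0.041) was lost with upper-quartile factors (0.11), with library totals alone (0.23), with the replicate block (0.083) and without static replicate 1 (0.12), static replicate 2 (0.067), static replicate 3 (0.096), shear replicate 2 (0.12) or shear replicate 3 (0.091).

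Other transcription factors of limb and mesenchyme, a list of 62 genes that leaves the 10 members out, were more often lower than higher. Of 46 tested, 17 fell, 4 rose and 25 did not pass, which makes 37.0% lower and 8.70% higher against 7.71% and 10.8% of all genes tested. The median log2 fold change of the list was -0.22, and that of all genes tested -0.01. This list and those below were chosen with earlier results of these data known, so nothing is read from their counts. With upper-quartile factors 4 rose and 19 fell, where 9.78% of all genes tested were lower, and with library totals alone 4 rose and 20 fell, where 12.4% were lower. Zfhx4, a large zinc-finger homeobox gene, fell furthest, from 10.8, 11.9 and 10.6 CPM in static to 3.96, 5.88 and 5.20 CPM in shear libraries. Its groups were apart, with a log2 fold change of -1.15 ± 0.12 (SE, adjusted p = 1.3e-07 by edgeR). Ebf3, an early B-cell factor family member found in mesenchyme, went from 18.0 ± 0.8 to 10.3 ± 1.4 CPM (SD, n = 3 each, log2 fold change -0.80, edgeR adjusted p = 5.3e-07), and the distal-less homeobox gene Dlx2 from 4.72 ± 0.52 to 2.68 ± 0.17 CPM (-0.82, adjusted p = 0.00029). Tshz1, a teashirt zinc-finger gene, was higher, with 16.4, 18.2 and 17.6 CPM in static and 29.1 to 30.1 CPM in shear libraries, a log2 fold change of 0.77 ± 0.07 (SE, adjusted p = 6.1e-09 by edgeR).

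The remaining falls in that list, named after their values were seen, came from several families. They included the homeobox genes Meox2 (-0.73), Six4 (-0.42), Six5 (-0.59) and Zfhx3 (-0.24), the forkhead gene Foxc1 (-0.49), Ebf2 (-0.34), the nuclear factor I genes Nfib (-0.48) and Nfix (-0.21, listed as Nf1x), the zinc-finger genes Tshz2 (-0.28), Tshz3 (-0.42) and Trps1 (-0.26), and Mecom (-0.91). In the early B-cell factor family, Ebf1 rose by 0.30 where Ebf2 and Ebf3 fell, and the T-box gene Tbx3 rose by 0.60. Foxc2, the other gene counted as higher, went from a mean of 0.272 to one of 0.864 CPM. It entered the test through the shear libraries, of which 3 reached the filter's minimum against 1 static library, so that its call follows in part from the filter. The most abundant members besides Nfix, Foxp1 (log2 fold change -0.03, edgeR adjusted p = 0.75) and Tbx15 (-0.01, adjusted p = 0.97), did not pass. Another 15 of the listed genes, among them the tendon regulator gene Mkx and the joint gene Erg, had too few counts to test. The call of Foxc1 was lost without static replicate 2 (edgeR adjusted p = 0.076) or shear replicate 3 (0.077). Those of Trps1, Zfhx3 and Six5 were lost without at least 3 of the 6 libraries in turn, and the calls of Trps1 (adjusted p = 0.079) and Zfhx3 (0.061) also with DESeq2.

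The family lists closest to the members held few expressed genes. Of 26 paired-type homeobox factors, the class to which PRRX1 and PRRX2 belong, 4 were tested, of which 0 rose and 2 fell, where 7.71% of all genes tested were lower. Pitx1, a hindlimb identity gene, had 11.1, 12.3 and 12.7 CPM in static and 7.77, 8.83 and 8.41 CPM in shear libraries, with a log2 fold change of -0.53 ± 0.10 (SE, adjusted p = 0.00024 by edgeR). Shox2, a limb-growth gene, had 80.0, 70.1 and 74.0 CPM in static and 61.0, 65.0 and 57.2 CPM in shear libraries, with a log2 fold change of -0.29 ± 0.06 (SE, adjusted p = 0.00082 by edgeR). In both, the groups did not overlap. Alx4 had a log2 fold change of -0.70 at a low level and did not pass (edgeR adjusted p = 0.13). Of the Twist-related basic helix-loop-helix genes Hand2 (-0.20, edgeR adjusted p = 0.34) and the tendon gene Scx (-0.11, adjusted p = 0.70) were tested, and of the DM domain family Dmrt1 and Dmrta2 (0.34, adjusted p = 0.69), and none of these passed.

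The BTB zinc-finger family of PATZ1 moved in both directions. Of 44 tested genes, 7 fell, 6 rose and 31 did not pass, 29.5% called against 18.5% of all genes tested, and their median log2 fold change was -0.03. Zbtb8a fell furthest among those whose average log2 CPM reached 1, from 8.27, 12.0 and 9.27 CPM in static to 5.12, 5.39 and 4.47 CPM in shear libraries (log2 fold change -0.98 ± 0.13, SE, adjusted p = 4.5e-06 by edgeR). Zbtb45 (-0.71) and Zbtb12 (-0.67) fell too, and the call of Zbtb12 was lost without static replicate 1 (edgeR adjusted p = 0.071) or shear replicate 3 (0.052). Zbtb43 was higher in all shear libraries, with 11.8, 11.0 and 10.5 CPM in static and 19.5, 18.1 and 17.2 CPM in shear libraries (log2 fold change 0.72 ± 0.08, SE, adjusted p = 6.6e-07 by edgeR). Zbtb17, which encodes the MYC partner MIZ1 and is among the most abundant of the family, rose by 0.26, while Zbtb1 (-0.10, edgeR adjusted p = 0.17) and Zfp131 (0.10, adjusted p = 0.18) did not pass. Zbtb1 passed with library totals alone (edgeR adjusted p = 0.033) and Zfp131 without shear replicate 1 (0.044).

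Of the other EMT transcription factors, 9 were tested, of which 3 rose (33.3%), 3 fell (33.3%) and 3 did not pass, against 10.8% higher and 7.71% lower of all genes tested. Zeb2, an E-box repressor that often acts beside SNAI proteins, had 176, 170 and 164 CPM in static and 154, 145 and 143 CPM in shear libraries, a log2 fold change of -0.21 ± 0.05 (SE, adjusted p = 0.0032 by edgeR). Its relative Zeb1 had 65.8, 61.6 and 66.7 CPM in static and 72.3, 69.5 and 74.8 CPM in shear libraries, a log2 fold change of 0.16 ± 0.05 (SE, adjusted p = 0.038 by edgeR). The groups did not overlap in either gene, but the call of Zeb1 was lost under 7 of the 14 alternatives, among them upper-quartile factors (edgeR adjusted p = 0.087), library totals alone (0.16) and the replicate block (0.052). Prdm1, the zinc-finger repressor also called BLIMP1, rose by 0.71 ± 0.07 (SE, adjusted p = 1.2e-07 by edgeR), from 13.1 to 14.5 CPM in static to 22.1 to 22.6 CPM in shear libraries. Foxc1 and Foxc2, which also passed, are given above. The 3 rises include Foxc2, which entered the test through the shear libraries, so that its call follows in part from the filter. The E-protein gene Tcf12, a partner of TWIST proteins, had a log2 fold change of 0.01 (edgeR adjusted p = 0.94). Without static replicate 2 or shear replicate 3, 3 of the 9 passed.

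Epithelial and mesenchymal genes are given for comparison. Of 24 epithelial genes, 18 had too few counts to test, with the SNAI target Cdh1 at 4 counts or fewer in every library. Of the 6 tested, 1 rose and 1 fell (16.7% each, against 10.8% and 7.71% of all genes tested). The keratin gene Krt7 fell from 54.7 ± 2.0 to 43.7 ± 3.7 CPM (SD, n = 3 each, log2 fold change -0.32, edgeR adjusted p = 0.00041), and the desmosome gene Dsp rose by 0.18 (adjusted p = 0.044), a call lost under 10 of the 14 alternatives. Jup, the third most abundant of them, had a log2 fold change of -0.02 (edgeR adjusted p = 0.94). Of 23 mesenchymal genes tested, 6 rose (26.1%), 4 fell (17.4%) and 13 did not pass, against 10.8% higher and 7.71% lower of all genes tested. Their median log2 fold change was 0.07. These counts include the rise of Zeb1 and the fall of Zeb2, which were already counted among the EMT transcription factors. Lum, the gene of the proteoglycan lumican, rose by 0.32, the matrix genes Tnc by 0.22 and Postn by 0.21, and the cadherin gene Cdh11 fell, from 208 ± 8 to 170 ± 4 CPM (SD, n = 3 each, log2 fold change -0.29, edgeR adjusted p = 5e-05). Of the most abundant, the fibronectin gene Fn1 rose by 0.13, a call lost with upper-quartile factors (edgeR adjusted p = 0.082), library totals alone (0.20), the replicate block (0.077) and without static replicate 1 (0.097), static replicate 2 (0.097) or shear replicate 3 (0.14). Vim (0.11, edgeR adjusted p = 0.063) and Col1a1 (0.11, adjusted p = 0.094) did not pass. Vim passed with DESeq2 (adjusted p = 0.011) and, by edgeR, with no filter (0.021) and without shear replicate 2 (0.037), and Col1a1 with no filter (0.02). Without static replicate 1, 5 of the 23 passed, and without shear replicate 3, 6 passed.

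**Figure D5:**
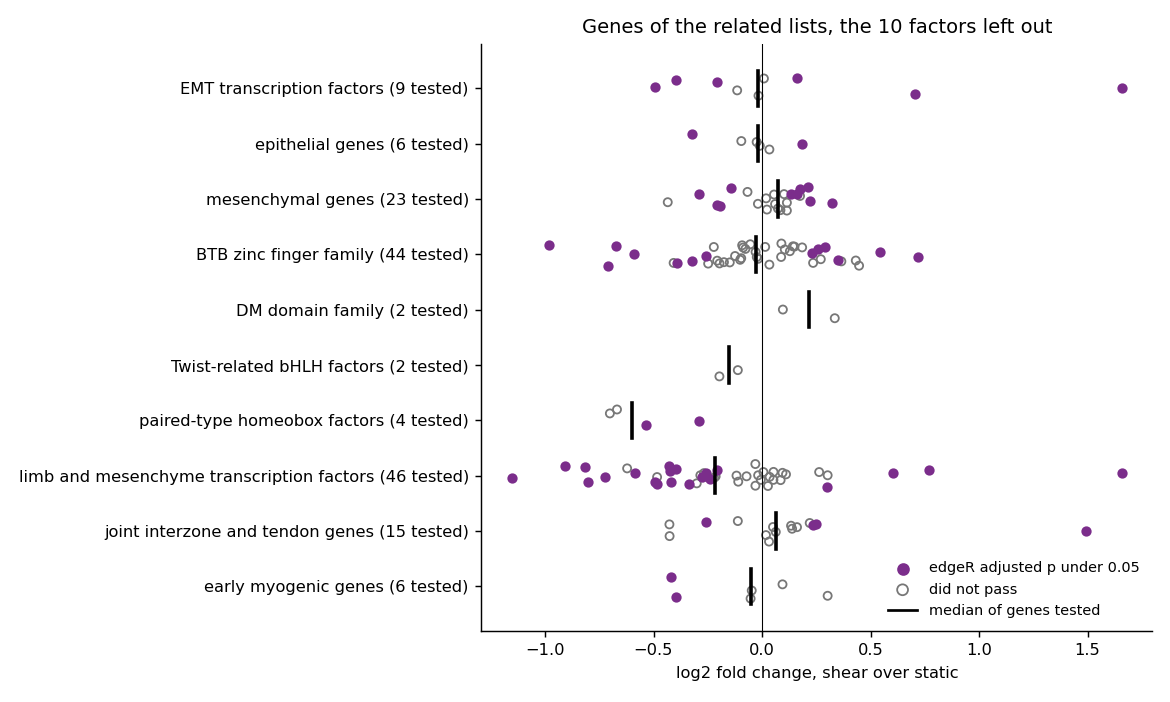
Log2 fold change, shear over static, of every tested gene in the lists around the 10 factors; filled points passed the edgeR test, open points did not, and black bars are medians. The limb and mesenchyme list is spread to the left, with 17 genes lower and 4 higher and a median of -0.22, while the BTB zinc-finger list is spread to both sides.

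Joint and muscle genes are linked by background to OSR1 and DMRT2. Of 15 tested genes of the joint interzone and tendon, 3 rose (20.0%) and 1 fell (6.67%), against 10.8% and 7.71% of all genes tested, and their median log2 fold change was 0.06. The hyaluronan synthase gene Has2 rose by 0.24 (edgeR adjusted p = 0.0007), Trps1 fell as given above, and Wnt9a, named after its value was seen, rose from a mean of 0.154 to one of 0.442 CPM. Wnt9a entered the test through the shear libraries, since 0 of 3 static libraries reached the filter's minimum. Its call rests on 2 to 16 counts per library and was lost with no filter (edgeR adjusted p = 0.092), with the replicate block (0.059) and without static replicate 1 (0.20), static replicate 2 (0.09), shear replicate 1 (0.08), shear replicate 2 (0.095) or shear replicate 3 (0.13). The rise of Prg4 (0.25, edgeR adjusted p = 0.018) was lost with library totals alone (0.062) and without static replicate 1 (0.055), static replicate 3 (0.096) or shear replicate 3 (0.071). Cd44 (0.03, edgeR adjusted p = 0.68) and Sulf1 (0.13, adjusted p = 0.06), the most abundant of this list beside Has2, did not pass. Sulf1 passed with DESeq2 (adjusted p = 0.04) and, by edgeR, with no filter (0.025) and without static replicate 1 (0.05) or shear replicate 1 (0.015). Without shear replicate 3, 2 of the 15 passed. Of 18 early myogenic genes 6 were tested, of which 0 rose and 2 fell (33.3%, against 7.71% of all genes tested), Six4 among them, and without static replicate 2 or shear replicate 3 only 1 passed. Desmin (Des, -0.05, edgeR adjusted p = 0.77) did not pass, and the myogenic factors Myf5, Myod1, Myog and Myf6 had too few counts to test.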

How the data were processed

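RNA was sequenced from 6 libraries, 3 static and 3 under shear stress. The authors deposited raw counts per gene, in the layout of featureCounts per the file headers, with the exon length in bases. Trimmomatic 0.36, edgeR 3.12.1, Subread 1.5.1 and featureCounts are named in the submitters' processing notes. Aligner, genome build, annotation, strand setting and treatment of duplicates were not given in the sources used here. Even numbers made up 71.4% to 72.2% of the counts between 1 and 20 and 51.1% to 52.3% of those over 200 and the counts were also halved as an alternative.

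The deposited counts were filtered (filterByExpr, minimum count 10), scaled by TMM factors (0.979 to 1.026) and tested, two-sided, by quasi-likelihood in edgeR 4.0.16 and R 4.3.3. P-values were adjusted by Benjamini-Hochberg over the 13945 genes tested, with a threshold of 0.05. Each SE was derived from the log2 fold change and its F statistic, as their ratio after taking the root of F. CPM uses the TMM-scaled totals, RPKM divides it by the exon length of the table, and profiles used log2 CPM with a prior count of 2. Ratios of paralogs were tested by exact permutation in SciPy 1.17.1. DESeq2 1.42.0 was an alternative. The test was checked on simulated counts, with 50 genes at each simulated log2 fold change. It recovered 100% of them at -1.5 and at 1.5, 70% at -0.5 and 80% at 0.5. Of the simulated calls, 3.85% were false.

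RefSeq synonyms served to match older symbols. The members and lists were chosen with earlier results of these data known. Named genes are the members, the 4 most changed called genes of each list whose average log2 CPM reached 1, the 3 most abundant tested genes per list, the chromosomal neighbours and the 3 nearest profiles (symbols starting LOC or RGD left out); others are marked. Libraries with the same number did not deviate together. Some genes of the lists are counted but not reported here by name.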

Additional observations from a re-analysis of the deposited data

How the results depend on the processing

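The alternatives were other scalings (RLE, upper-quartile, library totals), DESeq2, no filter or a minimum count of 30, halved counts, the replicate number as a block, and each library left out. Under these 14 alternatives the log2 fold change ranged from -1.82 to -1.68 for Osr1, from -1.55 to -1.47 for Dmrt2 and from -1.76 to -1.64 for Patz1. With 1 library left out, 1962 to 2417 genes were called in all. The shared replicate numbers come from the titles alone, and deviations of same-numbered libraries correlated at -0.019, -0.0187 and -0.000505; the replicate block gave 1372 higher and 964 lower genes. The number of epithelial genes called was 1 in place of 2 with upper-quartile factors, library totals alone, DESeq2, no filter and the replicate block, and 1 to 2 with a library left out. With a library left out, counts of called genes ranged from 3 to 6 (EMT factors), 5 to 9 (mesenchymal), 2 to 3 (joint), 1 to 2 (early myogenic), 17 to 20 (limb and mesenchyme) and 3 to 4 (relatives).

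The sign of some log2 fold changes that did not pass also changed; the cause was not tested. With a library left out, values ranged from -0.14 to 0.052 (Des), -0.13 to 0.37 (Dmrt1), -0.31 to 0.64 (Dmrta2), -0.050 to 0.048 (Drg1), -0.055 to 0.013 (Foxp1), -0.12 to 0.049 (Jup), -0.22 to 0.0084 (Osr2), -0.083 to 0.19 (Pik3ip1), -0.048 to 0.033 (Tbx15), -0.025 to 0.037 (Tcf12), -0.11 to 0.011 (Ttc32), -0.11 to 0.031 (Twist2) and -0.088 to 0.0017 (Vldlr). Library totals alone gave -0.018 for Cd44 and -0.041 for Tcf12, upper-quartile factors -0.017 for Tcf12, DESeq2 0.00084 for Drg1, and no filter 0.0027 for Drg1 and 0.00045 for Tbx15. Osr2, with 27 to 43 counts per library, had the fewest counts of the 10 factors, and its SE of 0.28 was the largest among them.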
